A study of Mus musculus with 6 samples.

Results

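Complement is a set of plasma and tissue proteins that mark microbes, immune complexes and dying cells for removal. The genes described here encode its components and regulators: C1qa, C1qb, C1qc, C3, C4b, C2, Cfb, Serping1 and Cd55, 9 genes in all. They were followed through every probe set that the platform annotation maps to one of these symbols, which gave 12 of the 22690 probe sets of the table. Of these, 10 were annotated to 1 member alone, 1 to both C4a and C4b, and 1 to both Cd55b and Cd55. No probe set of this annotation was listed for C3, so C3 is not analysed here, and 8 of the 9 genes had a probe set. C1qa, C1qb, C1qc and Serping1 were selected on their higher signal in BDL_GW4064 than in BDL_Vehicle, the groups defined in the next paragraph, so for them the values are given as a description with no test.

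RNA of the ileum, the distal small intestine, was measured on 6 single-colour arrays in 3 groups of 2. All mice were male wild-type animals of a mixed C57BL/6:129Sv background, 8 to 10 months old. Sham_Vehicle mice were sham-operated and received vehicle by gavage. BDL_Vehicle mice had the common bile duct ligated, which keeps bile out of the gut, and the same vehicle. BDL_GW4064 mice were ligated and received GW4064, which activates the bile acid receptor FXR, at 100 mg/kg/day for 2 days before and 5 days after surgery. Every group therefore had surgery and daily gavage. Nothing in the labels states that each array is a different animal. The p-values therefore reflect the spread between these arrays alone, which may be technical, and 2 arrays a group limit the precision.

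In the classical pathway, C1q, built from the A, B and C chains that C1qa, C1qb and C1qc encode, binds antibody on a target and activates the proteases C1r and C1s. C1s cleaves C4 and C2, whose fragments form an enzyme that cleaves C3, and factor B, encoded by Cfb, forms the corresponding enzyme of the alternative pathway. C1 inhibitor, encoded by Serping1, inactivates C1r and C1s, and decay-accelerating factor, encoded by Cd55, takes the C3-cleaving enzymes apart on the cell surface. In tissues C1q is made largely by macrophages and dendritic cells. Liver is the main source of most plasma complement proteins, and intestinal epithelium makes C3 and factor B.

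C1qa, C1qc and C1qb are neighbours on chromosome 4, with C1qc as the 1 annotated gene between C1qa and C1qb. Cfb and C2 lie side by side on chromosome 17, with 0 protein-coding genes between them, and C4b lies close by, with 5 protein-coding genes between it and Cfb. For the neighbours C1qb and C1qc, the 250 bases before the start are shown from RefSeq (build GRCm38.p6). The sequences read 5′ to 3′ on the minus strand. They cover chr4:136886201-136886450 for C1qb and chr4:136892915-136893164 for C1qc.
C1qb: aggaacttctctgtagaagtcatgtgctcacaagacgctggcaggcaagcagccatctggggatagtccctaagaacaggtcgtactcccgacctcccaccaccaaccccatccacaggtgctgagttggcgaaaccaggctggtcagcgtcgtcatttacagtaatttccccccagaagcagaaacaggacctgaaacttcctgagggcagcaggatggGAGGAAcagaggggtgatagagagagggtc
C1qc: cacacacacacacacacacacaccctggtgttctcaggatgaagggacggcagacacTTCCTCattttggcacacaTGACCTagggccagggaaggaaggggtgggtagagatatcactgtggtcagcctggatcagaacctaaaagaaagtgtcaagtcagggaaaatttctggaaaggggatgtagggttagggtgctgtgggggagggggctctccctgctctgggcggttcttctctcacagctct
Capitals mark matches, on either strand, to GAGGAA, the core bound by the myeloid factor PU.1, or to AGGTCA, the hexamer bound by many nuclear receptors. These motifs do not overlap in either window. GAGGAA occurred 1 time in each sequence, and 23.3% of 32851 promoter windows of this length held it. AGGTCA occurred 1 time in C1qc and 0 times in C1qb, against 14% of all windows. Neither sequence held a form of the interferon response element (GAAA, any 2 bases, GAAA), found in 2.98% of windows, or an inverted repeat of the type bound by FXR (AGGTCA, any 1 base, TGACCT), found in 0.00609%. The absence of a match says only that these letters are not in this window. The table held 4 of the 9 member genes, and a match is a description of letters and not of binding.

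Deposited MAS5 signals are on a linear scale, and each array had the same trimmed mean of 200.1, so a signal is relative to the rest of its array. Signals of different probe sets are not comparable with each other. Differences between groups are given on the log2(signal + 4) scale, where 1 is a doubling for bright probe sets. Probe sets in the lowest 40% by mean signal, below about 37.1, were not tested. That left 13576 probe sets, among them 11 of the 12 members. The probe set shared by Cd55b and Cd55 had signals of 1.3 to 5.9 in all arrays and was the member left out.

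Markers of the ileum were present in every array, with 3274.1 to 3931.3 for the enterocyte gene Vil1 and 118 to 595.6 for the ileal bile acid transporter Slc10a2. Fgf15, the FXR target hormone of the ileum, read 809.6 to 972.1 in BDL_GW4064 and 3.4 to 5.5 in BDL_Vehicle, in the direction of the treatment labels. Sham_Vehicle replicate 2 stood apart in the ratio of 3′ to 5′ signal of actin, a sign of RNA quality, with 1.73 against 1.09 to 1.22 elsewhere. A control probe set at the 5′ end of 18S rRNA split the arrays into a set with 67.3 to 88.7 (Sham_Vehicle replicates 1 and 2, BDL_Vehicle replicate 1) and a set with 8.6 to 13.3 (the other 3). This array set nearly follows the groups, so values within a set rest on BDL_Vehicle replicate 1 for ligation and on BDL_Vehicle replicate 2 for GW4064.

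The C1q genes, which encode the recognition subunit of the classical pathway, had their highest signals in BDL_GW4064. C1qa read 162.7 and 127.8 in Sham_Vehicle, 208.8 and 177.6 in BDL_Vehicle and 341 and 363.1 in BDL_GW4064 (replicates 1 and 2 in each). The 3 groups did not overlap, and their means stood in the order Sham_Vehicle, BDL_Vehicle, BDL_GW4064. The difference between BDL_GW4064 and BDL_Vehicle was 0.86 ± 0.18 (log2, SE), or 1.81-fold, and that between BDL_Vehicle and Sham_Vehicle was 0.41 ± 0.18.

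C1qc showed the same order. Its signals were 112.6 and 125.8 in Sham_Vehicle, 152.7 and 148.7 in BDL_Vehicle and 310 and 283.1 in BDL_GW4064. The groups again did not overlap. BDL_GW4064 stood 0.96 ± 0.16 (log2, SE) above BDL_Vehicle, or 1.94-fold, and BDL_Vehicle 0.33 ± 0.16 above Sham_Vehicle.

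C1qb had 3 probe sets, and they did not behave alike. The first read 142.2 and 99.3 in Sham_Vehicle, 137 and 128.6 in BDL_Vehicle and 246.1 and 211.8 in BDL_GW4064, which is 0.76 ± 0.21 (log2, SE) or 1.70-fold above BDL_Vehicle. The sham and vehicle-treated ligated arrays overlapped. The second read 85.6 and 83.1, then 96.4 and 74.8, then 118.7 and 121.3, a difference of 0.48 ± 0.20 between BDL_GW4064 and BDL_Vehicle. The third read 101.8 and 121.5 in Sham_Vehicle, 146 and 73.4 in BDL_Vehicle and 114 and 119.1 in BDL_GW4064, a difference of 0.16 ± 0.30. In this probe set the BDL_GW4064 arrays lay between those of BDL_Vehicle, and the sign of the difference was decided by 1 array: it was -0.32 without BDL_Vehicle replicate 2 and 0.64 without BDL_Vehicle replicate 1. The identifiers of the second and the third end in _x_at, which marks probe sets with probes that can also match other transcripts, and what these probes match was not tested.

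Serping1, the C1 inhibitor gene, had the largest difference with GW4064 among the 11 member probe sets. It was chosen for its rise in this comparison, so nothing is read from that rank. It read 107.3 and 145.2 in Sham_Vehicle, 133.2 and 131.8 in BDL_Vehicle and 299.7 and 331.9 in BDL_GW4064. Both BDL_GW4064 arrays lay above the other 4, and the Sham_Vehicle and BDL_Vehicle arrays overlapped. BDL_GW4064 stood 1.23 ± 0.19 (log2, SE) above BDL_Vehicle, or 2.34-fold, and 1.31 ± 0.19 above Sham_Vehicle.

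Of the 6 probe sets of these 4 genes, 5 had both BDL_GW4064 arrays above both BDL_Vehicle arrays, which was so for 17.4% of all tested probe sets. The choice of the genes fixed this count, so nothing is read from it. Against Sham_Vehicle the count was also 5 of 6, with 23.8% over all tested probe sets, and it shares the BDL_GW4064 arrays. In the ligation comparison 2 of 6, those of C1qa and C1qc, had both BDL_Vehicle arrays above both Sham_Vehicle arrays, against 18.2% of all tested probe sets. That comparison shares the BDL_Vehicle arrays with the one used for the choice. Over the 5 C1q probe sets the median difference was 0.76 between BDL_GW4064 and BDL_Vehicle, and 0.15 between BDL_Vehicle and Sham_Vehicle. The ligation value was 0.026 without Sham_Vehicle replicate 2, whose actin ratio was the highest, and 0.35 without BDL_Vehicle replicate 2, which is also the value within the array set.

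**Figure D1:**
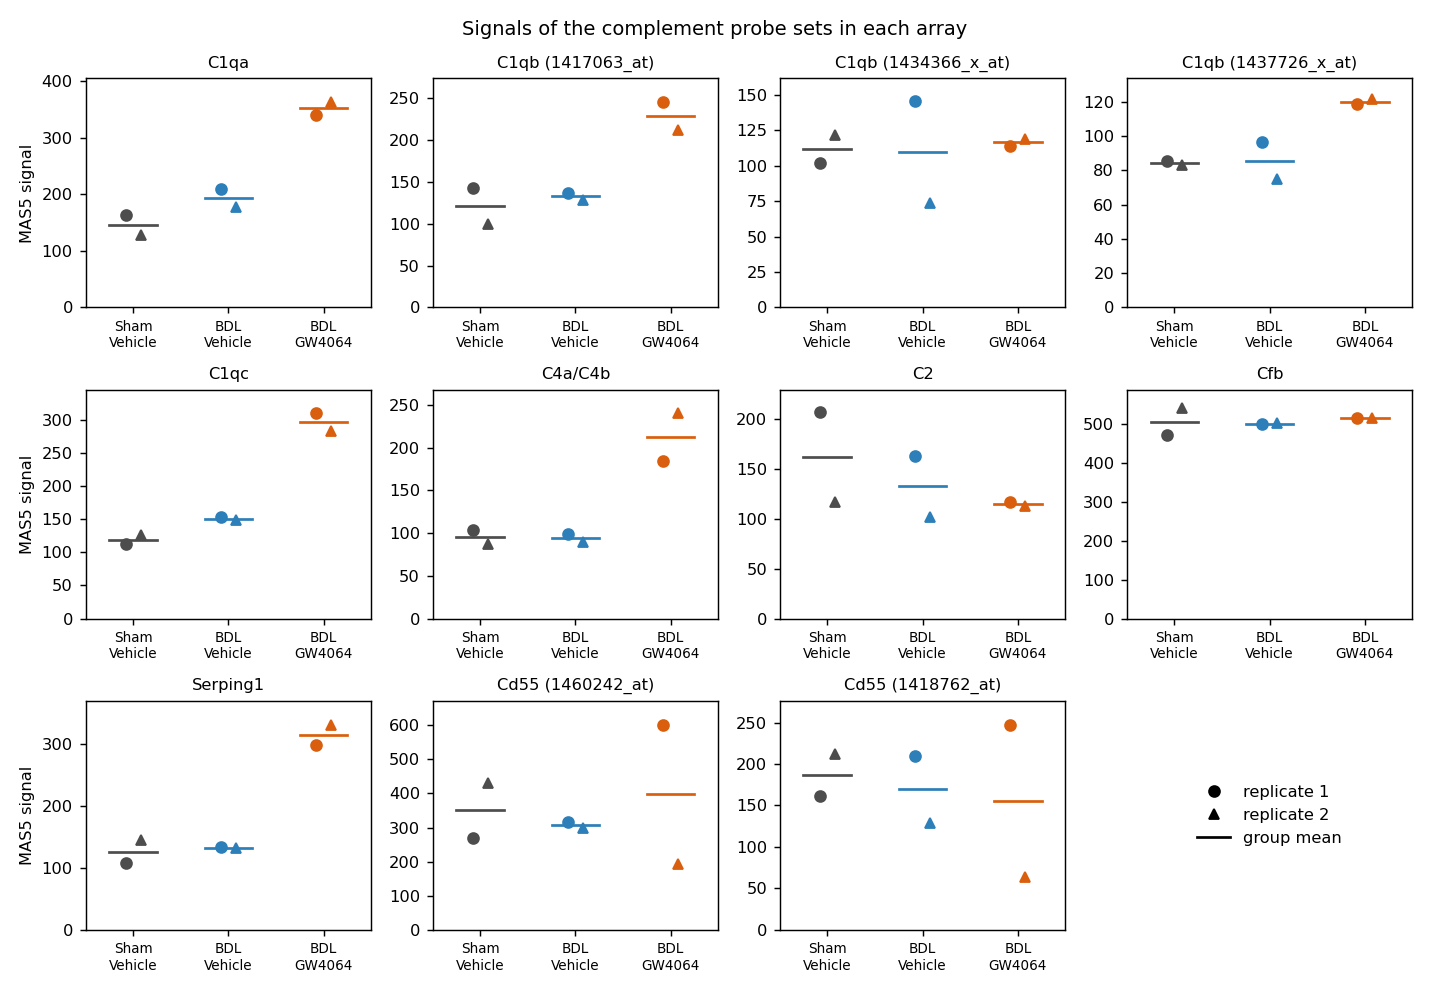
MAS5 signal (linear axis from 0, a separate scale for each probe set) of the 11 tested complement probe sets in each array, with circles for replicate 1, triangles for replicate 2 and a line for the group mean. C1qa, C1qc, the C4a/C4b probe set, Serping1 and the first and last C1qb panels are highest in both BDL_GW4064 arrays. Those C1qb panels are the first and second C1qb probe sets of the text. Cfb lies between 471.2 and 541.4 throughout, and the BDL_GW4064 arrays of Cd55 lie far apart.

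C4, C2 and factor B form the enzymes that cleave C3. The probe set annotated to both C4a and C4b, near-identical genes of the same region that it cannot tell apart, read 104.1 and 86.9 in Sham_Vehicle, 99.5 and 89.8 in BDL_Vehicle and 184.7 and 240.4 in BDL_GW4064. Both BDL_GW4064 arrays were above the other 4, and the Sham_Vehicle and BDL_Vehicle arrays overlapped. Its difference between BDL_GW4064 and BDL_Vehicle was 1.12 ± 0.20 (log2, SE), or 2.18-fold, with an unadjusted p of 0.000589 and an adjusted p of 0.204 (limma, Benjamini-Hochberg over all tested probe sets), so it did not pass the threshold of 0.05. Against Sham_Vehicle the difference was 1.12 ± 0.20 (limma adjusted p = 0.158). Between BDL_Vehicle and Sham_Vehicle it was -0.0087 ± 0.20, with a 95% interval of -0.48 to 0.46.

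C2, the serine protease of the classical pathway, read 207.7 and 117.6 in Sham_Vehicle, 163.7 and 102.1 in BDL_Vehicle and 116.9 and 112.6 in BDL_GW4064. The BDL_GW4064 arrays lay between those of BDL_Vehicle and, by a small gap, below both Sham_Vehicle arrays. The difference between BDL_GW4064 and BDL_Vehicle was -0.17 (95% interval -0.88 to 0.55, limma adjusted p = 0.964), and that between BDL_GW4064 and Sham_Vehicle was -0.43 (95% interval -1.15 to 0.28, limma adjusted p = 0.518). The first of these was 0.16 without BDL_Vehicle replicate 1, which is also the value within the array set. The second was -0.83 without Sham_Vehicle replicate 2 and -0.034 without Sham_Vehicle replicate 1.

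Cfb had the narrowest spread of the members. Its signals were 471.2 and 541.4 in Sham_Vehicle, 498.9 and 502.8 in BDL_Vehicle and 515.8 and 516.3 in BDL_GW4064. Both BDL_GW4064 arrays lay above both BDL_Vehicle arrays, but within the range of Sham_Vehicle. The difference between BDL_GW4064 and BDL_Vehicle was 0.043 ± 0.13 (95% interval -0.27 to 0.35, limma adjusted p = 0.979), and its sign turned with median centring of the arrays (-0.019). Between BDL_Vehicle and Sham_Vehicle the difference was -0.012 (95% interval -0.32 to 0.30, limma adjusted p = 0.989).

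Cd55, a regulator anchored on the surface of many cells, had BDL_GW4064 arrays at opposite ends of its range. Its brighter probe set read 269.8 and 430.7 in Sham_Vehicle, 316.3 and 298.5 in BDL_Vehicle and 602.1 and 194.3 in BDL_GW4064. The dimmer one read 161.4 and 211.6, then 209.2 and 129.4, then 246.8 and 63.7. In both probe sets BDL_GW4064 replicate 1 was the highest and BDL_GW4064 replicate 2 the lowest of all arrays. The differences between BDL_GW4064 and BDL_Vehicle were 0.16 ± 0.46 for the brighter (limma adjusted p = 0.979) and -0.37 ± 0.54 for the dimmer (limma adjusted p = 0.947). The 95% intervals, -0.92 to 1.23 and -1.63 to 0.89, span both directions. Without BDL_GW4064 replicate 1 the values were -0.65 and -1.32, and without BDL_GW4064 replicate 2 they were 0.96 and 0.57.

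Of the 5 tested probe sets of C2, Cfb, Cd55 and C4a/C4b, 0 passed the threshold in the ligation comparison, where limma called 0.0295% of all tested probe sets. At an unadjusted p under 0.05 there were also 0 of 5, against 6.37%. With GW4064 in ligated mice 0 of 5 passed, against 0.0516% of all tested probe sets, and 1, the C4a/C4b probe set, had an unadjusted p under 0.05, against 7.48%. Between BDL_GW4064 and Sham_Vehicle 0 of 5 passed, against 0.0368%, and the same C4a/C4b probe set was the 1 with an unadjusted p under 0.05, against 16%. The last 2 comparisons share the BDL_GW4064 arrays. Both arrays of the first-named group lay above both of the other in 0 of 5 for BDL_Vehicle against Sham_Vehicle, 2 of 5 for BDL_GW4064 against BDL_Vehicle (C4a/C4b and Cfb) and 1 of 5 for BDL_GW4064 against Sham_Vehicle (C4a/C4b), the shares over all tested probe sets being those given for C1q. They lay below in 0, 0 and 1 of 5 (C2), against 18.7%, 18.1% and 26.3% of all tested probe sets.

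**Figure D2:**
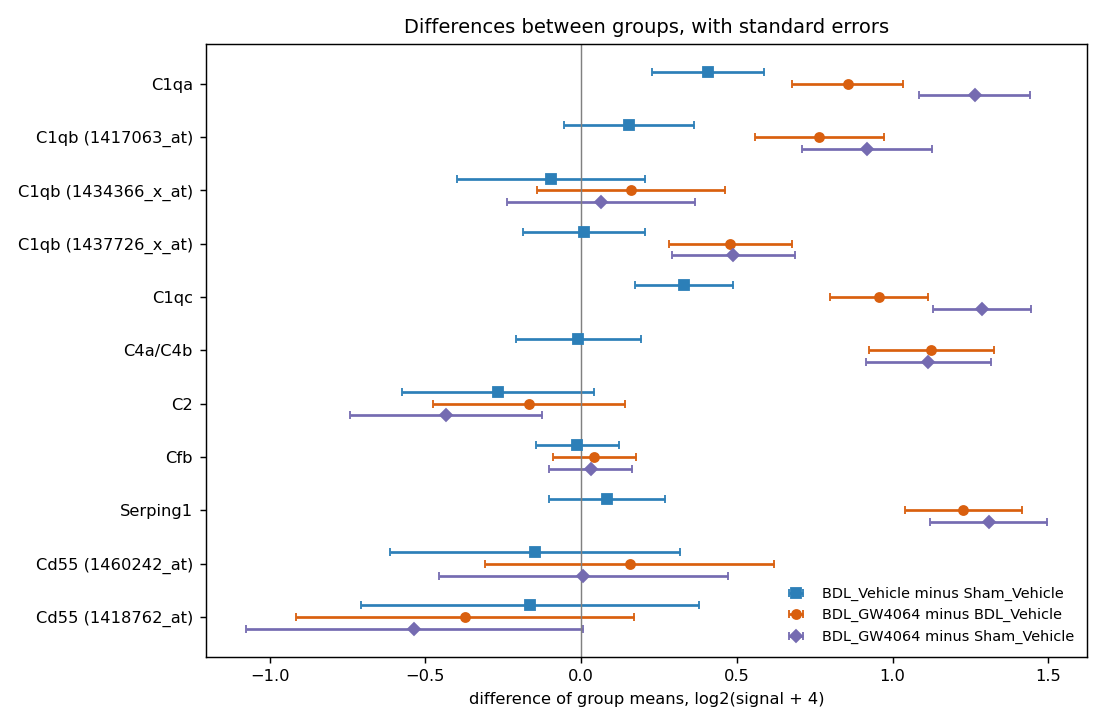
Difference of group means on the log2(signal + 4) scale for each tested complement probe set, with bars of 1 standard error from the limma fit; squares are BDL_Vehicle minus Sham_Vehicle, circles BDL_GW4064 minus BDL_Vehicle and diamonds BDL_GW4064 minus Sham_Vehicle. Serping1 (1.23), the C4a/C4b probe set (1.12), C1qc (0.96) and C1qa (0.86) have the largest GW4064 differences, while Cfb (0.043) lies at 0 and the bars of both Cd55 probe sets are wide. Serping1 and the C1q genes were chosen for their rise with GW4064.

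The rest of the complement system was taken from a list of 50 symbols. Of these, 36 had a probe set of their own, 13 were bright enough to be tested, and 20 stayed below 37.1 in every array. The genes below that signal included the lectin pathway proteases Masp1 and Masp2, the terminal components Hc, C8a, C8b, C8g and C9, properdin (Cfp) and the anaphylatoxin receptor C5ar1. With GW4064, 9 of the 13 tested genes had higher and 4 lower values than in BDL_Vehicle. Their median was 0.31, while over all 7920 genes tested it was 0.0022 and 50.4% had higher values. Of the 13, 0 passed the limma threshold, against 0.0884% of all genes, and 4 had an unadjusted p under 0.05, against 7.47%. With a term for the array set that count was 2, and the share over all tested probe sets was 4.52%. Both BDL_GW4064 arrays lay above both BDL_Vehicle arrays in 6 of 13, against 19.1% of all genes, and below in 0, against 16.7%.

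The proteases that C1q activates stood among these genes. C1s1, encoding C1s, read 39.2 and 60.2 in Sham_Vehicle, 39.4 and 49 in BDL_Vehicle and 97 and 106.9 in BDL_GW4064. That is 1.14 ± 0.27 (log2, SE) or 2.21-fold above BDL_Vehicle (limma adjusted p = 0.312). C1ra, encoding C1r, read 32.8 and 46.5, then 28.8 and 46.1, then 64.2 and 82.3, a difference of 0.92 ± 0.31 (limma adjusted p = 0.525). In both genes the BDL_GW4064 arrays lay above the other 4. C1ra was dim outside BDL_GW4064, with a signal below 37.1 in 2 of those 4 arrays.

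Among the regulators, Clu, encoding clusterin, an inhibitor of the terminal complex, read 292.2 and 285.7 in Sham_Vehicle, 240.6 and 209.7 in BDL_Vehicle and 336.4 and 341.1 in BDL_GW4064. BDL_Vehicle was lowest and BDL_GW4064 highest, with no overlap between groups. The difference was -0.36 ± 0.15 for ligation (limma adjusted p = 0.751) and 0.58 ± 0.15 for GW4064 (limma adjusted p = 0.351). Cd59a, which blocks the membrane attack complex, did not meet the rule for named genes and was picked after its values were seen, since it too split the BDL_GW4064 arrays. It read 35.8 in BDL_GW4064 replicate 1 and 200.1 in replicate 2, against 27.5 to 46.9 in the other 4 arrays. Its difference was 1.32 ± 0.65 with both arrays (limma adjusted p = 0.748) and 2.50 without BDL_GW4064 replicate 1. The value without replicate 1 rests on the 1 high array, which is assumed to vary like the arrays of the other groups. Over the alternatives that kept both arrays of the compared groups, the count of these genes that passed with GW4064 was 0.

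Among the receptors, Cd93, a surface protein of endothelial and myeloid cells once described as a C1q receptor, read 32.9 and 54.2 in Sham_Vehicle, 40.7 and 40.3 in BDL_Vehicle and 70.9 and 68 in BDL_GW4064. The BDL_GW4064 arrays were above the other 4, by 0.72 ± 0.28 over BDL_Vehicle (limma adjusted p = 0.591). Itgam and Itgb2, the chains of complement receptor CR3, had ligation differences of 0.69 ± 0.29 and 0.29 ± 0.22 (limma adjusted p = 0.751 and 0.818). Without Sham_Vehicle replicate 2 these were 0.36 and 0.097, and without Sham_Vehicle replicate 1 they were 1.02 and 0.49. C1qbp, encoding a mitochondrial protein that can bind C1q, had 0.33 ± 0.12 there (limma adjusted p = 0.751), and 0.016 ± 0.12 with GW4064. None of these 4 receptor genes passed in either comparison.

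In the ligation comparison, 4 of the 13 genes had higher and 9 lower values, with a median of -0.13, against -0.012 over all genes, of which 47.9% were higher. Of the 13, 0 passed in limma, against 0.0379% of all genes, and 3 had an unadjusted p under 0.05 (Clu lower, C1qbp and Itgam higher), against 6.01%. Without Sham_Vehicle replicate 2 the median was 0.016. With a term for the array set 0 of 13 had an unadjusted p under 0.05, against 3.7% of all tested probe sets. The BDL_Vehicle arrays lay above both Sham_Vehicle arrays in 3 of 13 and below in 2, against 18.1% and 19.7% of all genes. Between BDL_GW4064 and Sham_Vehicle, 10 of 13 were higher, against 51.8% of all genes, with a median of 0.35, 0 passed, against 0.0253% of all genes, and 4 (C1s1, C1qbp, C1ra and Cd93) had an unadjusted p under 0.05, against 14.2%. With a term for the array set that count was 0, and the share over all tested probe sets fell to 3.21%. The arrays did not overlap in 7 higher and 1 lower gene, against 25% and 24% of all genes.

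**Figure D3:**
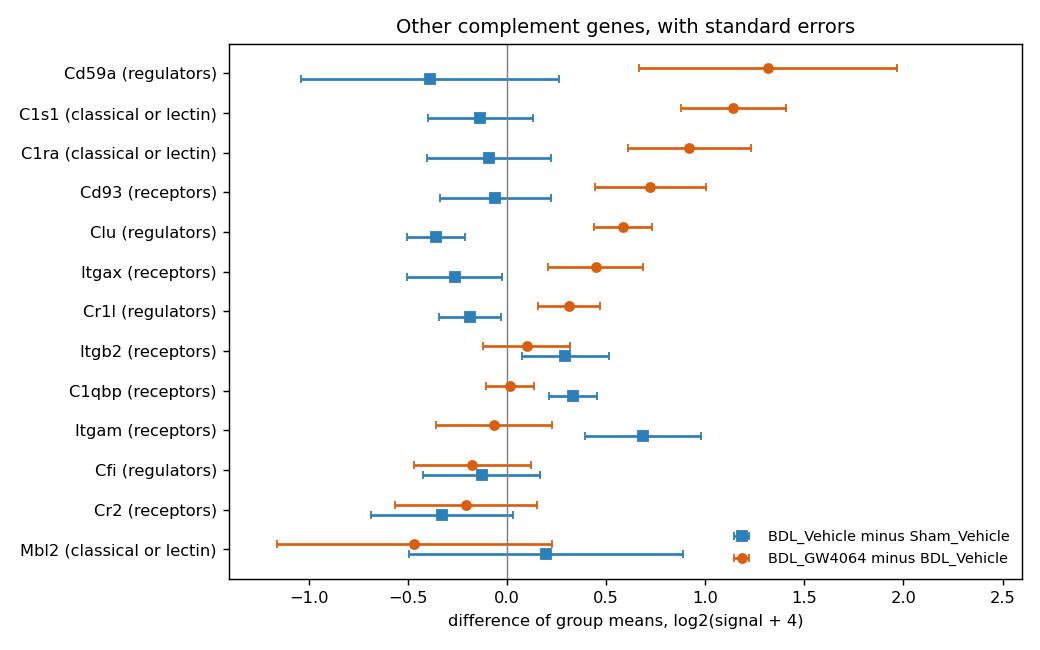
Difference of group means on the log2(signal + 4) scale for the 13 other complement genes that were tested, with bars of 1 standard error from the limma fit; squares are BDL_Vehicle minus Sham_Vehicle and circles BDL_GW4064 minus BDL_Vehicle, and the role of each gene is in brackets. C1s1 (1.14), C1ra (0.92), Cd93 (0.72) and Clu (0.58) lie to the right with GW4064, and the long bar of Cd59a reflects its unequal BDL_GW4064 arrays.

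RNA of whole ileum holds many cell types, and more cells of a type and more RNA per cell cannot be told apart. Of 22 macrophage markers listed, 17 were tested. Of these, 0 passed with GW4064 in limma, against 0.0884% of all genes, and 5 had an unadjusted p under 0.05, against 7.47%. Values were higher in BDL_GW4064 than in BDL_Vehicle for 14, against 50.4% of all genes, and lower for 3 (Cd14, Fcgr2b and Lyve1), with a median difference of 0.36. Their summed signal was 3429 to 3654 in Sham_Vehicle, 3472 to 4254 in BDL_Vehicle and 4267 to 4888 in BDL_GW4064. Here and in the lists below, such a sum is weighted towards the brightest probe sets. In BDL_GW4064 replicate 1, Ctss read 1541.6 and Lyz2 1197.1. Fcer1g, the Fc receptor signalling chain, read 51.5 and 57.6 in BDL_Vehicle and 159.6 and 124.8 in BDL_GW4064, while the macrophage gene Adgre1, encoding F4/80, read 71.1 and 49.3 against 55.9 and 68.5. Cd163, Fcgr1 and Siglec1 were below 37.1 in all arrays. The part of these cells in the C1q values was not tested.

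Fibroblast and matrix genes were higher in BDL_GW4064 than in BDL_Vehicle in 18 of 18 tested, against 50.4% of all genes, with a median of 1.36. The low-signal filter used the mean of all 6 arrays, so dim genes entered partly through their BDL_GW4064 signals. Examples are Lum (20.9 and 21.8 in BDL_Vehicle, 32.9 and 178.2 in BDL_GW4064) and Fstl1 (31.8 and 37.6, then 60.5 and 140). The summed signal of the list was 5807 and 6517 in BDL_GW4064, 2049 and 2602 in BDL_Vehicle and 1965 and 3193 in Sham_Vehicle. Fn1, fibronectin, was the 1 of 18 that passed, against 0.0884% of all genes, with a difference of 1.90 (limma adjusted p = 0.0094). Of 10 endothelial genes listed, 5 were tested. Values were higher in 5 of 5, against 50.4% of all genes, with a median of 0.79, and 0 passed in limma, against 0.0884% of all genes. Their summed signals were 435.6 and 433.9 in BDL_GW4064 and 236.1 to 306.4 in the other 4 arrays. Serping1, C1ra, C1s1 and the C4a/C4b probe set were high in the same 2 arrays as these lists, and the part of stromal cells in their values was not tested.

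Other lists separated the 2 BDL_GW4064 arrays from each other, as the C1q genes and Serping1 did not. The choice of those genes for higher signal in BDL_GW4064 favours genes high in both arrays, so nothing is read from this contrast. Interferon response genes, of which 19 were tested, had a summed signal of 8661 in BDL_GW4064 replicate 1 and 4820 in replicate 2, and 4126 to 4957 in the other 4 arrays. Smooth muscle genes, 10 tested, had 2309 in BDL_GW4064 replicate 1 and 16970 in replicate 2, against 1807 to 2538 elsewhere. Adipocyte genes, 4 tested, had 477.5 and 1185, against 216.6 to 599.1. C1qa was 341 and 363.1 and Serping1 299.7 and 331.9 in the same arrays. Cd55 was high in the array with the high interferon sum and Cd59a in the array with the high smooth muscle sum, and the part of either in those values was not tested.

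Of 10 hepatocyte genes, 8, among them Alb (7.1 to 28.4), were below 37.1 in all arrays. The other two were Ttr, with 53.7 to 81.2, and Apoh, which read 120.3 in BDL_GW4064 replicate 1 and 25 to 53 in the other 5 arrays. The 12 enterocyte genes summed to 44390 to 49350 over the 6 arrays, a sum carried by the brightest probe sets. Between BDL_GW4064 and BDL_Vehicle their median difference was -0.032, with 9 lower and 3 higher values. Of the 12, 0 passed in limma, against 0.0884% of all genes. Both BDL_GW4064 arrays lay below both BDL_Vehicle arrays in 3 (Vil1, Cdx2 and Cdh1), against 16.7% of all genes. They lay above in 1 (Krt18), against 19.1%. B cell genes, 6 tested, summed to 604 and 471 in BDL_GW4064, inside the range of the other arrays (467.3 to 805.6).

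**Figure D4:**
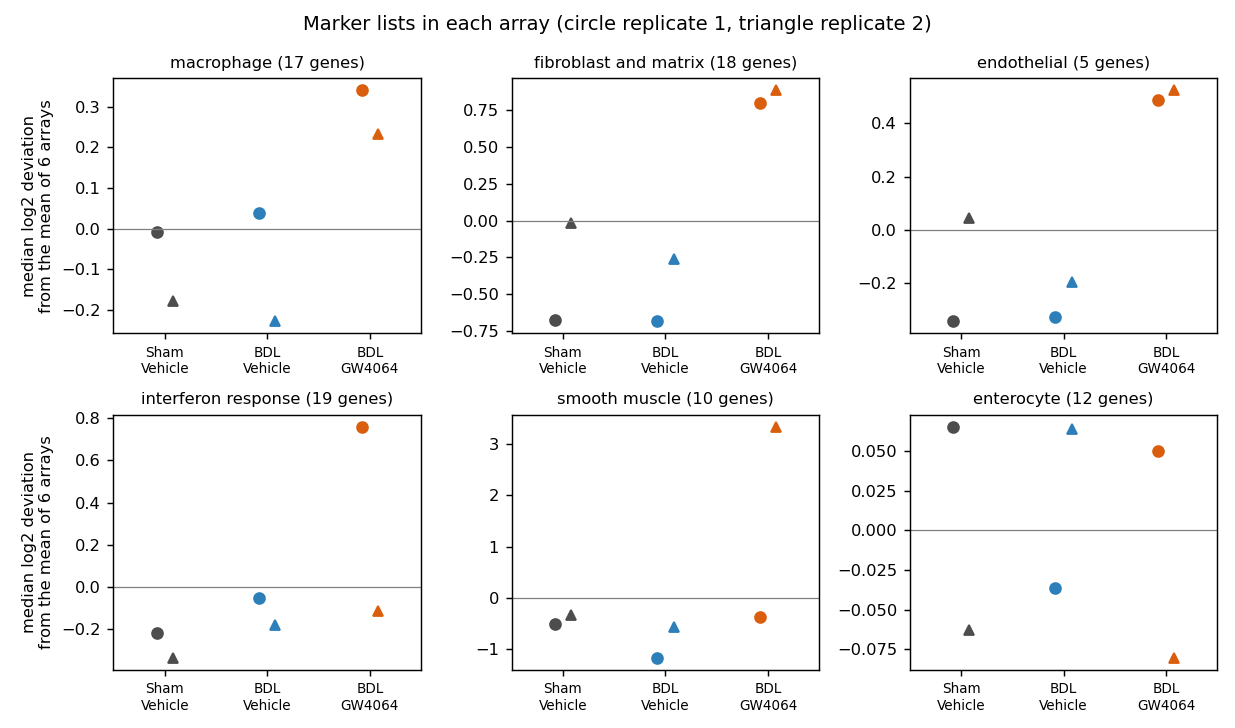
Median, over the tested genes of each marker list, of the log2 deviation of an array from the mean of the 6 arrays, with circles for replicate 1 and triangles for replicate 2; the vertical scale differs between panels. The macrophage, fibroblast and endothelial lists are highest in both BDL_GW4064 arrays, the interferon list is high in BDL_GW4064 replicate 1 alone, and the smooth muscle list in BDL_GW4064 replicate 2 alone.

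Genes were also ranked by how closely their log2 signals followed the members over the 6 arrays, with Pearson's r as a description of 6 points that share 3 groups. The C1q genes and Serping1 were chosen for higher signal in BDL_GW4064. That choice places genes higher in the same arrays close to them, so no shared regulation or cell type is read from these rankings. Closest to the mean profile of C1qa, C1qb and C1qc, among 7913 genes, were Etfbkmt (r = 0.99), Nr1i2 (0.99), Mlxip (0.99), Dnajc8 (0.98), Ppp2cb (0.98), Usp24 (0.98), Fcgrt (0.98) and Tnk2 (0.97). Nr1i2, the xenobiotic receptor PXR, read 169.9 and 144.8 in Sham_Vehicle, 174.5 and 182.1 in BDL_Vehicle and 285.9 and 263.4 in BDL_GW4064. Fcgrt, the neonatal Fc receptor, read 365 and 351.7, then 437.5 and 427.3, then 603.6 and 543.3, with the same order of groups as C1qa. In all, 110 genes had an r over 0.9 with this profile.

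Closest to Serping1 were Crip2 (r = 0.99), Axl (0.99), Mpeg1 (0.99), Ecm1 (0.99) and Inafm2 (0.98). Axl, a receptor tyrosine kinase that takes part in the clearance of dying cells, read 57.2 and 69.6 in Sham_Vehicle, 60 and 60.4 in BDL_Vehicle and 119.7 and 118 in BDL_GW4064. Mpeg1, a macrophage gene encoding perforin-2, read 202.8 to 207.5 in BDL_Vehicle and 297.6 to 302.3 in BDL_GW4064. C2 and Cfb ran opposite to each other over the 6 arrays (r = -0.75), so their mean profile describes neither gene. The genes closest to that mean were Smpd3, Kansl1l and Upk2 (0.99 each), Cd24a and Nfya (0.97 each).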

How the data were processed

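Biotin-labelled cRNA made from 5 µg of total RNA per sample was hybridised to 1-colour arrays, per the labels' protocols. The authors deposited linear intensity values, which the submitters' processing notes attribute to MAS5. The version and detection calls are not given in the sources used here. Genes came from the platform annotation, and sequences and gene order from RefSeq (GRCm38.p6), used for no array coordinate. The scale used was log2(signal + 4), with a pseudocount equal to the 10th percentile of all signals. After leaving out 64 control probe sets and the lowest 40%, limma 3.58.1 in R 4.3.3 was fitted to 13576 probe sets: 1 mean per group, all 6 arrays, a variance prior that followed signal, and Benjamini-Hochberg adjustment per comparison at 0.05. The script was tested on simulated data. For lists, the brightest probe set stood for a gene. The members and lists were chosen with earlier results of these data known. Named genes were all members, in each comparison the 4 other complement genes with the smallest p and any that passed, and the 8 or 5 genes most like C1q, Serping1, or C2 and Cfb. Alternatives changed scaling, pseudocount (1, 16), filter (none, 60%), variance prior, arrays fitted, replicate block and array set, or left out 1 array.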

Additional observations from a re-analysis of the deposited data

How the results depend on the processing

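Over 799 alternative values, 742 kept direction and side of the threshold or moved by less than the spread between replicates. The counts of passing probe sets of C2, Cfb, Cd55 and C4a/C4b were 0 under every alternative in all 3 comparisons. The limma adjusted p of C4a/C4b with GW4064 ranged from 0.137 to 0.803. Where both arrays of the compared groups were kept, 0 other complement genes passed with GW4064. The Cd59a difference became 2.50 without BDL_GW4064 replicate 1. All signs that turned belonged to differences that did not pass, or to C1qb and Serping1 differences, which were not tested. With quantile normalisation C4a/C4b became 0.016 for ligation, and the brighter Cd55 probe set became -0.0097 for BDL_GW4064 against Sham_Vehicle. With median centring these were 0.041 and -0.0046, and Cfb became 0.038 for ligation and -0.019 with GW4064. With a term for the array set, the ligation differences of C4a/C4b, C2 and the dimmer Cd55 probe set became 0.062, 0.064 and 0.18, C2 became 0.16 with GW4064, and C2 and the dimmer Cd55 probe set became 0.23 and 0.14 against Sham_Vehicle. The cause was not tested. The C1q median for ligation became 0.35 there, and against Sham_Vehicle it was 1.09 with the lowest 60% left out, where 4 of the 5 probe sets remained.

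Leaving out 1 array at a time, where the lone array of a group is assumed to vary like the other groups, gave ranges of 0.66 to 0.81 for the C1q median with GW4064, 0.026 to 0.35 for ligation and 0.67 to 1.17 against Sham_Vehicle. For ligation the ranges were -0.13 to 0.12 for C4a/C4b, -0.67 to 0.13 for C2, -0.11 to 0.087 for Cfb, and -0.48 to 0.19 and -0.50 to 0.18 for the brighter and the dimmer Cd55 probe set. With GW4064 they were -0.50 to 0.16 for C2, and -0.65 to 0.96 and -1.32 to 0.57 for those Cd55 probe sets. Against Sham_Vehicle they were -0.83 to -0.034 for C2, -0.069 to 0.13 for Cfb, and -0.80 to 0.81 and -1.48 to 0.41 for Cd55.

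The differences of replicate 1 from replicate 2 correlated between groups, over the tested probe sets, by 0.037, 0.094 and -0.12. With a single such difference per group, these values cannot decide whether the numbers paired the samples. With the replicate block the C4a/C4b difference with GW4064 was 1.12 (limma adjusted p = 0.23), and over all probe sets the block gave 2, 4 and 0 calls against 4, 7 and 5 without it. Over the alternatives, the calls among all probe sets with GW4064 ranged from 2 to 56, the highest without BDL_GW4064 replicate 1.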
